A study of Rattus norvegicus with 5 samples.

Results

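The comparison described here sets the microRNA array of rat hearts taken 20 days after transverse aortic constriction (TAC day 20) against the array of hearts taken after sham surgery. These are 2 of the 5 arrays of the series, and they were chosen by their surgery and time labels. TAC narrows the aortic arch between the carotid arteries, so that the left ventricle pumps against a raised load. All animals were male SD rats of 6 to 8 weeks and 200 to 300 g, and the sham rats had the same operation without the constriction. RNA from the hearts of 5 rats stood behind each array, and whole hearts were used, so every cell type of the heart contributed. The sham hearts are labelled as taken 5 days after surgery, while a header of the deposited signal table names day 15 for the same column. In either case sham was not matched in time to TAC day 20, so the effect of the constriction and the effect of time since surgery cannot be told apart.

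There was 1 array a side, so no test between TAC and sham hearts was possible, and every error given is the standard error over the 4 spots printed for each probe. It measures the spread within 2 arrays and not the spread between rats. In bulk RNA, fewer cells of a type and less RNA per cell cannot be told apart. Each value called a signal is the authors' background-subtracted intensity in scanner units before any scaling between arrays. Each ratio is the difference of scaled log2 levels, TAC day 20 minus sham, so that 1 stands for 2-fold.

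MicroRNAs are short RNAs that repress messenger RNAs by pairing, mainly through the seed, the bases near their 5′ end. Both strands of a hairpin can be loaded, and the one regarded as less abundant when named carries a star in the names used here. On both of these arrays some star strands, such as miR-183* and miR-204*, read brighter than their partner. In the heart, miR-1 and miR-133 are abundant muscle microRNAs, miR-208, miR-208b and miR-499 lie in introns of myosin genes, miR-21 and miR-199a are known from fibroblasts and stressed myocardium, and miR-142 and miR-223 are known from blood cells.

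The mature sequences of the microRNAs on which the results turn are shown 5′ to 3′ from RefSeq (rat assembly GRCr8), with the seed, bases 2 to 8, in capitals. The first 3 had the highest ratios of all, and a match was found for 197 of the 231 microRNAs measured on both arrays. MiR-193 lies at chr10:65170370-65170391 on the plus strand, miR-450a* at chrX:137720952-137720972 on the minus strand and miR-331* at chr7:30414457-30414475 on the minus strand.
miR-193: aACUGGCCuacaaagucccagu
miR-450a*: uAUUGGGAacauuuugcauaa
miR-331*: gGUCUUGUuuggguuuguu

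Of the 5 leukocyte microRNAs that read above sham, 4 are shown next, and their seeds differ. Both strands of miR-142 come from one hairpin at chr10:73055119-73055177 on the plus strand.
miR-142-3p: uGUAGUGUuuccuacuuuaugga
miR-142-5p: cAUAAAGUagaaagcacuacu
miR-146a: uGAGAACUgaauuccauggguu
miR-223: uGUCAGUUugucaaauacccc

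The miR-181 family shares 1 seed, and its 4 members all read below sham with the scaling used here.
miR-181a: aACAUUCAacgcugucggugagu
miR-181b: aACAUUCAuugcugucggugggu
miR-181c: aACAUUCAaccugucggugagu
miR-181d: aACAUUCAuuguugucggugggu

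The microRNAs of 2 myosin genes share a seed and read on opposite sides of sham. MiR-208 lies at chr15:32395568-32395585 and miR-208b-3p at chr15:32421648-32421665, both on the minus strand.
miR-208: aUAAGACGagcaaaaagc
miR-208b-3p: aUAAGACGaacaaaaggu

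Most microRNAs read close to sham on day 20. The arrays carry 678 rat probes, and 257 of these passed a detection floor on TAC day 20 and 236 on sham. The floor is the median of empty and negative-control spots plus 3 scaled median absolute deviations (28.1 units on TAC day 20, 30.6 on sham). The 231 above it on both arrays are called measured. Their ratios had a median of -0.08 and an SD of 0.43. Of the 231, 96 read above sham and 135 below, which is the share against which the counts of each list below have to be read. In all, 192 (83.1%) lay within 1.5-fold of sham. At 2-fold or more there were 4 (1.73%), 3 of them higher (1.3%) and 1 lower (0.433%). For comparison, 7.46% of the microRNAs measured on TAC day 15 and on sham, and 29.4% of those measured on TAC day 10 and on sham, were at 2-fold or more against the same sham array. Those arrays also had more variable spots, with a median log2 SD of 0.42 on TAC day 15 and 0.59 on TAC day 10, against 0.265 on TAC day 20. Their median backgrounds were 144 and 152 units, against 101. The shares thus cannot be told apart from these differences between arrays. The background correction and the scaling used here compress ratios, so the count of 4 runs low. With plain background subtraction 26 read higher and 18 lower at 2-fold, and in the authors' processed values 30 and 6. Plain subtraction set spots below 1 unit to 1 unit, which can widen the ratios of dim microRNAs, so its counts can run high.

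A second count asked whether a ratio exceeded the spread of its own spots. In 79 of the 231 (34.2%) the spots of the 2 arrays did not overlap, 45 of them higher on TAC day 20 (19.5%) and 34 lower (14.7%). This count, and every statement below that spots were separate or overlapped, uses the scaled log2 spot values. The printed signals are unscaled, so they can look otherwise. The spots of a microRNA varied more on TAC day 20, with a median SD of 0.265 on the log2 scale, than on sham, with 0.12. Spots in blocks 19 to 36 of the slide read brighter than those in blocks 1 to 18 by 0.36 on the TAC day 20 array and by 0.135 on the sham array. The 2 sets of blocks gave ratios of the same sign for 170 of the 231.

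**Figure D1:**
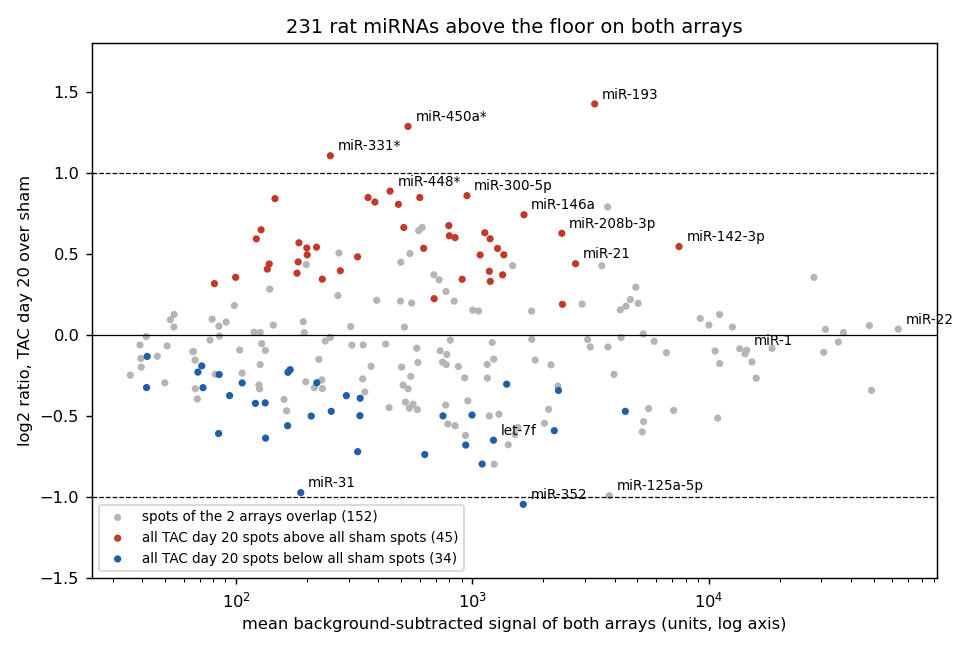
Log2 ratio of TAC day 20 over sham against the mean signal of both arrays (log axis) for the 231 measured rat microRNAs, with dashed lines at 2-fold. Only 4 points pass the dashed lines, 3 above and 1 below, and the 79 coloured points are those whose spots did not overlap.

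The highest ratio belonged to miR-193, a microRNA known as a repressor of growth in tumour cells. Its 4 spots read 3524, 3734, 5966 and 5863 units on TAC day 20, against 1744, 1742, 1922 and 1875 on sham. All TAC day 20 spots lay above all sham spots, and the ratio was 1.43 ± 0.18 (a 2.69-fold level). It stayed at 2-fold or more under all 15 alternative settings, from 1.05 with reference RNA scaling to 1.91 with spike-in scaling. On the earlier TAC arrays its ratio to the same sham array was -1.68 at day 5, -1.29 at day 10 and -0.55 at day 15, so day 20 was the one TAC array on which it read above sham.

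MiR-450a* comes from an X-linked cluster that also encodes miR-322 and miR-503. Its spots read 840, 896, 768 and 841 units on TAC day 20, against 179, 186, 265 and 298 on sham. The 2 arrays were far apart at every spot, with a ratio of 1.29 ± 0.11, although in blocks 19 to 36 alone it was 0.90 and so under 2-fold. The other 4 measured microRNAs of the cluster had overlapping spots and lay on both sides of sham, miR-351 at 0.34 ± 0.14, miR-503 at 0.27 ± 0.15, miR-322 at -0.03 ± 0.03 and miR-542-3p at -0.27 ± 0.26. With spike-in scaling miR-542-3p was at 0.47.

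MiR-331* is the rarer strand of the miR-331 hairpin. Its spots read 397, 369, 471 and 492 units on TAC day 20, against 85, 52, 62 and 76 on sham. The ratio was 1.11 ± 0.09 with no overlap of spots, and it was 2-fold or more under all 15 alternatives up to 2.60 in the authors' processed values. The abundant strand, miR-331, did not share this: its mean signal was 527 units on TAC day 20 and 570 on sham, with overlapping spots and a ratio of -0.26 ± 0.24.

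MiR-352 was the one microRNA at 2-fold or more lower. Its spots read 910, 832, 1230 and 945 units on TAC day 20, against 1796, 1715, 2766 and 2945 on sham. The groups of spots did not overlap, and the ratio was -1.05 ± 0.21. It was under 2-fold in blocks 1 to 18, at -0.74, and with spike-in scaling, at -0.50.

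**Figure D2:**
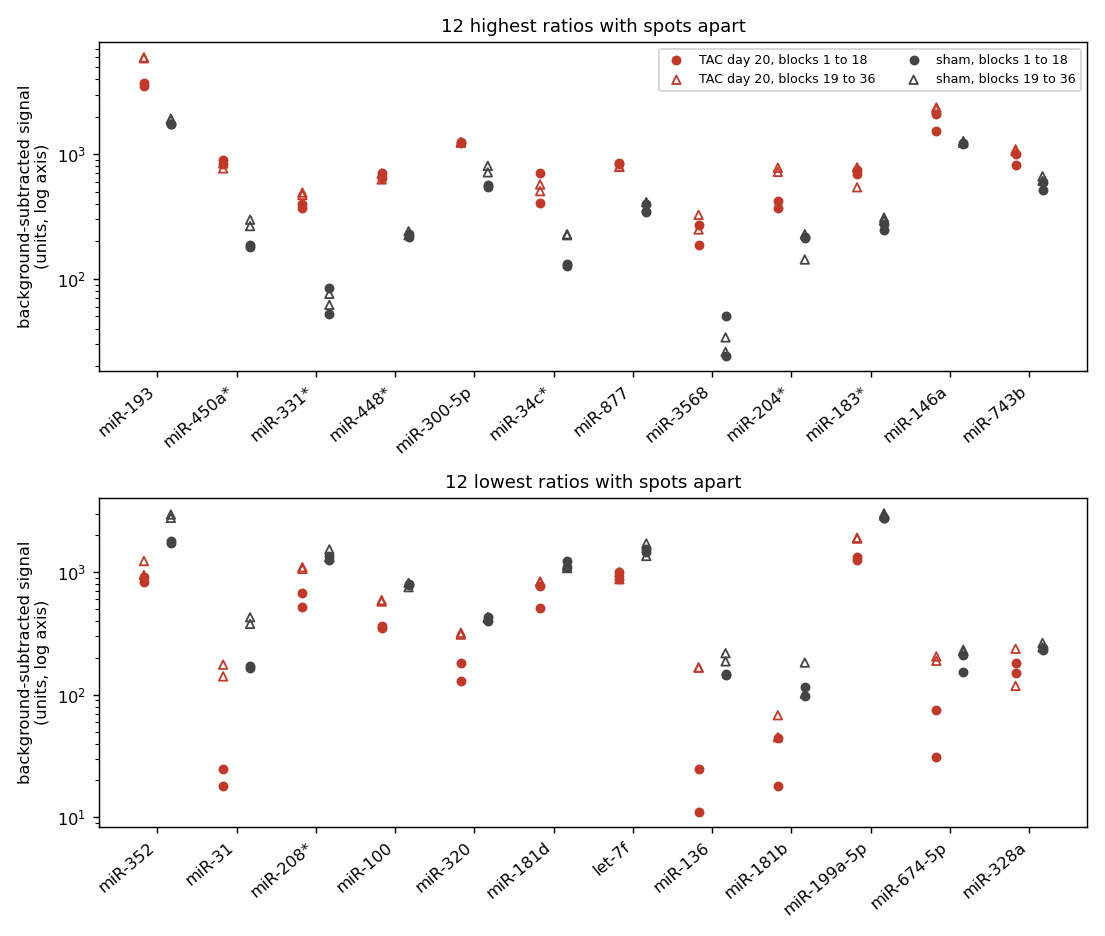
Background-subtracted signal of each of the 4 spots (log axis) for the 12 highest and the 12 lowest ratios among microRNAs whose scaled spots did not overlap, TAC day 20 in red to the left of sham in grey. Filled circles are blocks 1 to 18 and open triangles blocks 19 to 36. In miR-31 and miR-136 the TAC day 20 circles lie well below the triangles.

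Below 2-fold, the highest ratios with separate spots went to several star strands and little-studied microRNAs. MiR-448* read 701, 649, 698 and 627 units on TAC day 20, against 217, 229, 224 and 241 on sham, with a ratio of 0.89 ± 0.05. Its spots were among the tightest of the set. MiR-300-5p, from the imprinted Dlk1-Dio3 region, had a ratio of 0.86 ± 0.11, with 1.25 and 0.395 from the 2 sets of blocks. MiR-34c*, miR-877, miR-3568, miR-204*, miR-183* and miR-743b had ratios between 0.67 and 0.85. MiR-3568 rested on a faint sham signal of 33.5 units, near the floor, against 258 units on TAC day 20.

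The leukocyte list held 8 microRNAs, all measured, and 5 of them read above sham. The list's median was 0.57, beside -0.08 over all measured microRNAs, and it lay above that median under each of the 15 alternatives. The summed signal of the 8 was 19540 units on TAC day 20 and 14870 units on sham. The list was composed with earlier results of these data known, so its direction is a description.

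MiR-142 marks cells of the blood lineages. MiR-142-3p, its brighter strand, read 6792, 7182, 10203 and 10495 units on TAC day 20, against 5770, 5746, 6908 and 6907 on sham. The other strand, miR-142-5p, read 1111, 1215, 1635 and 1793 units on TAC day 20, against 882, 870, 1032 and 978 on sham. The strands gave nearly the same ratio, 0.55 ± 0.13 and 0.59 ± 0.19, each with scaled spots that did not overlap.

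MiR-146a is induced by NF-kappa-B and restrains innate immune signalling. It read 1523, 2115, 2367 and 2287 units on TAC day 20, against 1238, 1209, 1270 and 1228 on sham, a ratio of 0.74 ± 0.15 with no overlap. MiR-146b has the same seed and read -0.27 ± 0.58, with spots spread from 318 to 1502 units on TAC day 20. The sets of blocks gave -0.70 and 0.24, so the direction of miR-146b was not fixed by these arrays.

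MiR-223, a myeloid microRNA, read 504, 593, 1022 and 991 units on TAC day 20, against 375 to 454 on sham. Its ratio was 0.64 ± 0.27, and after scaling its spots overlapped. MiR-150, known from lymphocytes, had the highest ratio of the list, 0.79 ± 0.34, and its spots overlapped too, at 3215 to 5718 units on TAC day 20 and 1697 to 4290 units on sham. The 3 members below sham were miR-146b, miR-181a and miR-181b.

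**Figure D3:**
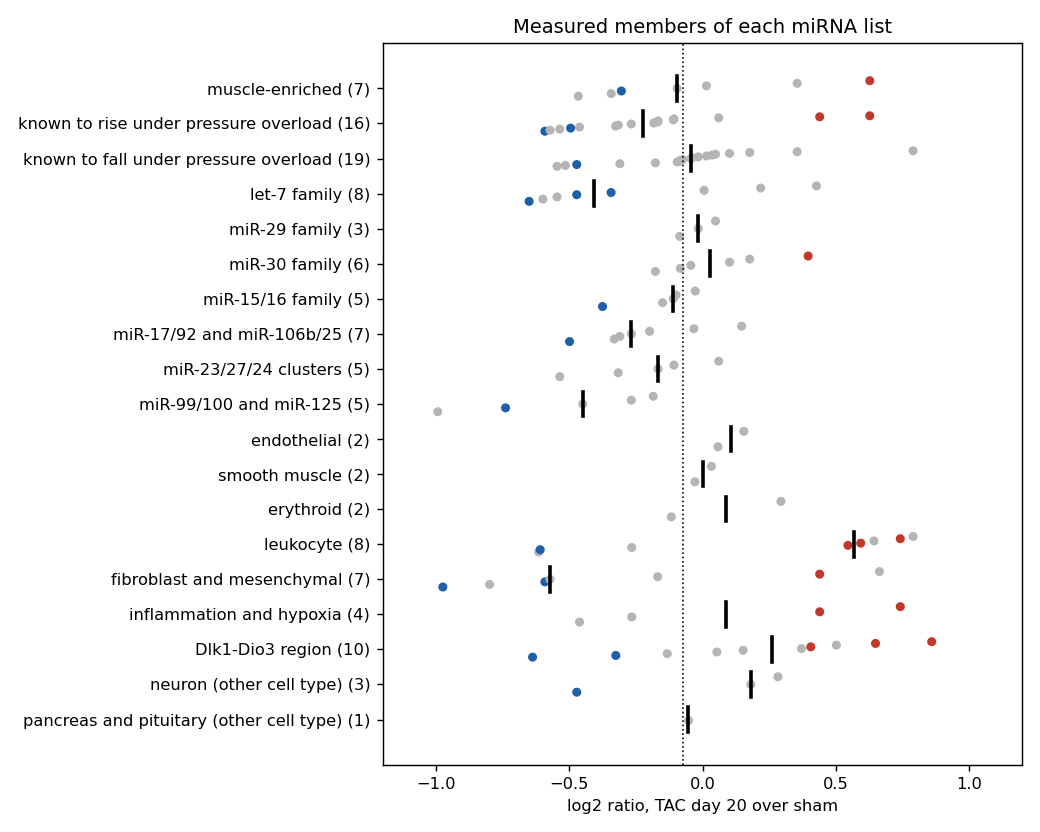
Log2 ratio of TAC day 20 over sham for each measured member of each list (number measured in brackets). Black bars are list medians, the dotted line is the median of all 231 measured microRNAs (-0.08), and red and blue points are microRNAs whose spots did not overlap. The leukocyte bar stands at 0.57 and the fibroblast and mesenchymal bar at -0.57.

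The miR-181 family, which tunes lymphocyte signalling and is also expressed in many tissues, read below sham in all 4 members, with a median of -0.61. MiR-181d read 509, 773, 838 and 828 units on TAC day 20, against 1110, 1231, 1133 and 1078 on sham, with a ratio of -0.68 ± 0.18. MiR-181b read 18, 44, 68 and 45 units on TAC day 20, against 98, 116, 183 and 102 on sham, with a ratio of -0.61 ± 0.11. The first TAC day 20 spot of miR-181b was below the floor. MiR-181d and miR-181b had separate spots. MiR-181a (-0.62 ± 0.50) did not, and its sets of blocks gave -1.12 and -0.09. MiR-181c, at -0.16, had overlapping spots too, and its unscaled mean was 68.5 units on TAC day 20 and 65.5 units on sham. Its ratio was 0.12 in the authors' processed values and 0.54 with spike-in scaling. The family median kept its sign under the 15 alternatives but came to nearly 0 with spike-in scaling.

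The let-7 family, a set of differentiation-linked microRNAs, had a median of -0.41, beside -0.08 over all measured microRNAs, while the share of members below sham, 5 of 8, was close to the 135 of 231 over all. Let-7f was the lowest, at 997, 879, 874 and 997 units on TAC day 20, against 1466, 1552, 1353 and 1712 on sham, a ratio of -0.65 ± 0.07. Let-7a (-0.34 ± 0.07) and let-7d (-0.47 ± 0.13) also had separate spots. Let-7c stood highest at 0.43 ± 0.77, and its spots ran from 434 to 2672 units on TAC day 20 and from 370 to 2857 units on sham. That spread is wider than the difference between its means on the 2 arrays, and its ratio changed sign between the sets of blocks, at -0.54 and 1.35.

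The related miR-99/100 and miR-125 list, some of whose members lie in clusters with let-7 genes, read below sham in all 5 measured members, with a median of -0.45. MiR-100 read 360, 352, 591 and 575 units on TAC day 20, against 794, 790, 816 and 753 on sham, with separate spots and a ratio of -0.74 ± 0.16. MiR-125a-5p had the lowest ratio, -0.99 ± 0.69, but the 2 sets of blocks gave -1.595 and -0.37, and its spots overlapped. The medians of the let-7 and the miR-99/100 and miR-125 lists kept their sign under all 15 alternatives, but both came to nearly 0 with spike-in scaling.

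Fibroblast and mesenchymal microRNAs read below sham in 5 of 7 measured members, beside 135 of 231 over all, with a median of -0.57, but the 2 sets of blocks differed here, and in blocks 19 to 36 alone the median was -0.03. MiR-31 read 18, 25, 176 and 141 units on TAC day 20, against 165 to 428 on sham. The first 2 TAC day 20 spots were below the floor, and the ratio was -0.97 ± 0.28. MiR-199a-5p, linked to hypoxia and hypertrophy, read 1245, 1336, 1905 and 1874 units on TAC day 20, against 2758, 2765, 2889 and 3013 on sham, with a ratio of -0.59 ± 0.19. MiR-152 and miR-199a-3p had ratios of -0.80 ± 0.66 and -0.57 ± 0.63 with overlapping spots.

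The 2 measured members above sham were miR-10a-5p and miR-21. MiR-10b, also on this list, was above the floor on TAC day 20 alone, with 280 units on TAC day 20 and 19 on sham. MiR-10a-5p read 305, 292, 1261 and 1355 units on TAC day 20, against 48, 226, 644 and 769 on sham, with overlapping spots and a ratio of 0.66 ± 0.72. MiR-21 is a microRNA linked to fibroblasts and injury. Its spots read 2880, 2743, 3110 and 3172 units on TAC day 20, against 2468, 2408, 2554 and 2542 on sham, with a ratio of 0.44 ± 0.05. Its star strand read 234 to 343 units on TAC day 20, against 72 to 150 on sham, with a ratio of 0.49 ± 0.13. Both strands had separate spots. With reference RNA scaling the ratio of miR-21 came to nearly 0.

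Of the muscle-enriched microRNAs 7 of 8 were measured, and their median of -0.10 was close to that of all measured microRNAs and turned above 0 with spike-in scaling, with cyclic loess and in blocks 1 to 18. MiR-1 read 12928, 11812, 15001 and 15283 units on TAC day 20, against 14751, 14387, 15395 and 16507 on sham. That gave a ratio of -0.10 ± 0.07, with overlapping spots. MiR-133b was at 0.01 ± 0.08. MiR-133a was at 0.35 ± 0.12 after scaling, although its mean signal was lower, 25850 units on TAC day 20 and 30010 units on sham, and its ratio was below 0 with median scaling, reference RNA scaling, quantile scaling over all probes, plain subtraction and the authors' processed values.

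The myosin-encoded microRNAs lay on both sides of sham. MiR-208b-3p, from the slow myosin heavy chain gene, read 1887, 1916, 3563 and 3827 units on TAC day 20, against 1725, 1827, 2148 and 2251 on sham, with a ratio of 0.63 ± 0.26. Its unscaled spots overlapped and its scaled spots did not. MiR-208, hosted by the gene for alpha myosin, read 27295, 35492, 50401 and 50607 units on TAC day 20, against 47020, 51401, 65418 and 63974 on sham, a ratio of -0.34 ± 0.26. The scaled spots of miR-208 overlapped. One sham spot of miR-208 was saturated, so its sham level is a lower limit, and with spike-in scaling its ratio was 0.12. Its star strand, miR-208*, read 524, 669, 1096 and 1061 units on TAC day 20, against 1249, 1351, 1321 and 1531 on sham, with separate spots and a ratio of -0.80 ± 0.28. MiR-499 ranged from 2079 to 16654 units on TAC day 20 and from 2126 to 13416 units on sham, so its ratio of -0.47 ± 0.82 says little. Its star strand, miR-499*, was at 0.19, and at -0.29 with reference RNA scaling.

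Of 16 measured microRNAs listed as known to rise under pressure overload 3 read above sham and 13 below, with a median of -0.23 that turned above 0 with spike-in scaling. After scaling, 4 of the 16 had separate spots, beside 34.2% over all measured microRNAs: miR-208b-3p and miR-21 above sham, and miR-199a-5p and miR-34a (-0.50 ± 0.15) below. Of 19 listed as known to fall 7 read above sham and 12 below, close to the share over all, with a median of -0.04 that turned above 0 with spike-in scaling, with the median of spots and in blocks 1 to 18. MiR-9 (-0.47 ± 0.13) was the one of these with separate spots. The brightest microRNA, miR-22, had 2 saturated spots on TAC day 20 and 3 on sham, so its ratio cannot be read from these arrays.

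Other families stayed near sham. The medians were -0.02 for the miR-29 family, which represses collagens, 0.03 for the miR-30 family, -0.11 for the miR-15/16 family and -0.17 for the miR-23/27/24 clusters, and each of these turned sign under at least spike-in or reference RNA scaling. The endothelial miR-126 read 42592, 39816, 48720 and 51220 units on TAC day 20, against 47524, 48535, 51128 and 54199 on sham, a ratio of 0.06 ± 0.09. The smooth muscle pair was at 0.03 ± 0.23 (miR-143) and -0.03 ± 0.07 (miR-145), and the erythroid pair at 0.29 ± 0.28 (miR-144) and -0.12 ± 0.17 (miR-451). The medians of the endothelial, smooth muscle and erythroid lists were above 0 here. They fell below 0 with median scaling, reference RNA scaling, plain subtraction and the authors' processed values. In the miR-17/92 and miR-106b/25 list 6 of 7 measured members read below sham, beside 135 of 231 over all, with a median of -0.27. The lowest was miR-17-5p at -0.50 ± 0.03, whose spots read 251 to 292 units on TAC day 20 and 376 to 408 units on sham. With spike-in scaling the list median was 0.41 and miR-17-5p was at 0.19.

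Of 50 listed probes for the imprinted Dlk1-Dio3 region, a large cluster of placental mammals, 10 were measured and 38 were below the floor on both arrays. The list left out star strands and some other probes of the region. Of the 10, 7 read above sham, with a median of 0.26. MiR-323 read 189 to 242 units on TAC day 20, against 5 to 84 on sham, with a ratio of 0.65 ± 0.14, and miR-668 was at 0.41 ± 0.08. MiR-136 went the other way, with means of 92.2 units on TAC day 20 and 174 units on sham, with a ratio of -0.64 ± 0.23. Members of the list thus lay on both sides of sham with separate spots. With star strands counted, 12 measured microRNAs lay at chr6:134545075-134571136 in the region. All 12 read above sham, from 0.05 to 0.86 with a median of 0.39, beside 96 of 231 above sham over all. With reference RNA scaling, miR-329, miR-539*, miR-134* and miR-667 read below it. The stretch was set by gaps of at most 10 kb between measured microRNAs on the same strand. The 3 measured list members below sham, miR-136, miR-127 (-0.33) and miR-665 (-0.13), were not among the 12. Also outside the stretch on this chromosome, miR-1188-3p was at -0.18 and miR-433* at 0.33.

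Among markers of other cell types, liver miR-122 was below the floor on both arrays, and of 7 epithelial probes 2 (miR-200b and miR-203) were above it on TAC day 20 alone and none on both. Of 6 neuronal probes 3 were measured. MiR-9 read below sham with separate spots, at -0.47 ± 0.13. MiR-124 (0.28 ± 0.10) and miR-9* (0.18 ± 0.10) read above sham with overlapping spots. The summed signal of all 6 probes, unscaled, was 499 units on TAC day 20 and 386 units on sham. Of 4 pancreas and pituitary probes, miR-7a was measured, at -0.05 ± 0.08, and miR-375 was above the floor on TAC day 20 alone, with 87 units on TAC day 20 and 22 units on sham, at least 1.196-fold higher. The part of these markers in the other results was not tested.

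Some microRNAs were above the floor on 1 array alone, 26 on TAC day 20 and 5 on sham. The floor was applied to unscaled signal and was lower on TAC day 20 (28.1 units) than on sham (30.6 units). Some of the 26 hardly differed, such as miR-181a-1* at 31 and 30.5 units with a ratio of -0.11. Probes without a name leaned the same way, 107 on TAC day 20 alone and 5 on sham alone. The part of a difference between the arrays in these counts was not tested. MiR-10b, a Hox cluster microRNA, read 140, 93, 440 and 448 units on TAC day 20, against 4, -8, 47 and 33 on sham, and was at least 1.896-fold higher. MiR-221* was at least 1.79-fold higher. On the sham side miR-151* was at least 1.42-fold lower on TAC day 20. MiR-137* counted as above the floor on sham through 1 spot of 1570 units, while its other 3 sham spots were below 0.

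Star strands stood above other strands. The 65 measured star strands had a median ratio of 0.13 and the other 166 microRNAs -0.13, and star strands were dimmer, with median signals of 250 and 772 units. The gap between the medians was above 0 under the 15 alternatives, from 0.10 in blocks 19 to 36 to 0.54 with plain subtraction. The gap differed with brightness. From the dimmest to the brightest of 4 classes, the medians were -0.08 for star strands and -0.19 for others, then 0.44 and -0.23, then 0.18 and -0.18, and in the brightest class, with 5 star strands, -0.08 and -0.04, which is the other way round. Within the 34 hairpins with both strands measured, 22 star strands read above their partner, by a median of 0.09 over all 34, and the strands had the same sign in 17. Over the 197 matched microRNAs Pearson's r between GC content and ratio was -0.04, a description across probes that share 2 arrays.

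**Figure D4:**
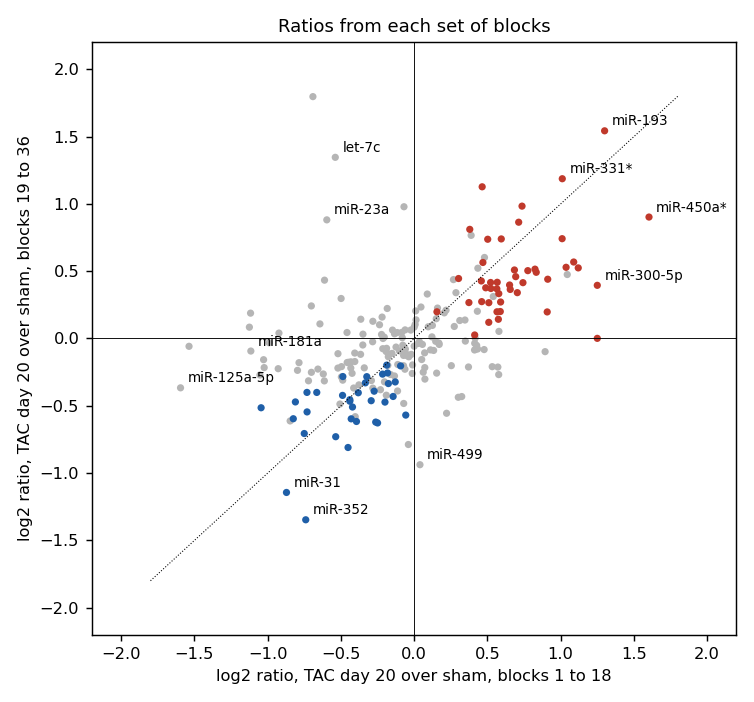
Log2 ratio of TAC day 20 over sham from blocks 1 to 18 (x) and from blocks 19 to 36 (y) for the measured microRNAs, with the line of equality dotted. MiR-193 (1.30 and 1.54) and miR-331* (1.01 and 1.19) are at 2-fold or more in both sets, while let-7c (-0.54 and 1.35) lies on opposite sides of 0.

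**Figure D5:**
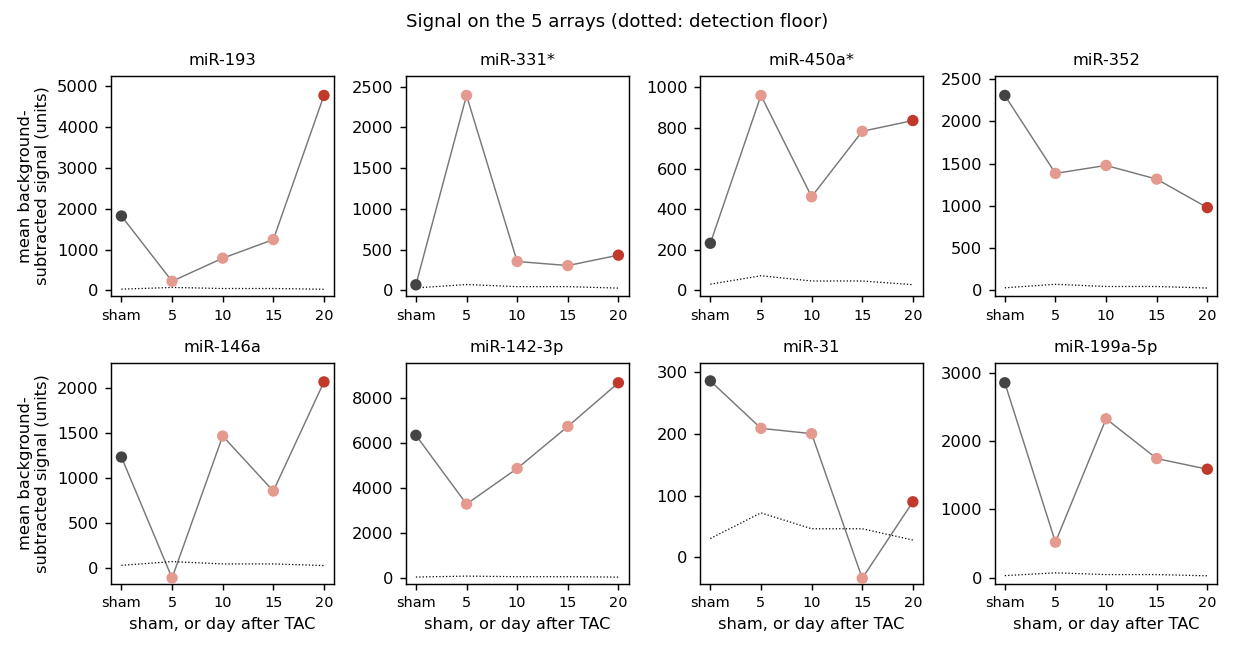
Mean background-subtracted signal of 8 microRNAs on the sham array and on the TAC arrays of days 5, 10, 15 and 20, before scaling, with the detection floor dotted. MiR-193 reads 224, 789, 1244 and 4772 units on days 5 to 20 and 1821 on sham, and miR-352 is lowest on day 20, at 979 units against 2306 on sham.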

How the data were processed

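Hearts of 5 rats stood behind each of 5 single-colour Hy3 arrays. The deposited intensity values are spot signals, with and without background subtracted, per the file headers. The authors' processed values are each a ratio of that background-subtracted intensity to 1 constant per array (1074.5 for TAC day 20, 1036.5 for sham), as a comparison of the deposited columns showed. No source used here names the software behind the signals.

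From the deposited intensity, background was corrected with normexp (offset 50, limma 3.58.1 in R 4.3.3), rat spots of all 5 arrays were quantile scaled, and log2 values were averaged over the 4 spots per probe. Tested on simulated data, this setting kept every sign but compressed the ratios of bright and dim probes, and it left some known differences under the 2-fold threshold that plain subtraction without scaling recovered. It had missed the recovery first required of it, and that requirement was moved to the second route, so 2-fold counts here run low. With 1 array a group no p-value was computed.

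Named microRNAs are those at 2-fold or more, the 12 highest and 12 lowest with separate spots, the 10 brightest, list extremes, a set fixed by name, list members and the 6 largest bounds a side. The members and lists were chosen with earlier results of these data known. Alternatives covered scaling, background, floor, spots, blocks and the authors' values.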

Additional observations from a re-analysis of the deposited data

Results flagged for a closer look

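MiR-193 read below sham on the earlier TAC arrays, at -1.677 on day 5 and -1.29 on day 10, and above it on day 20, at 1.43. All of these ratios use the same sham array, and the difference between days was not tested, since each day has 1 array.

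Among probes without a name in the deposited files, 430 were above the floor on both arrays, and 8 of these were at 2-fold or more higher on TAC day 20 and 7 lower. A further 107 unnamed probes passed the floor only on TAC day 20, and 5 only on sham. Rat probes leaned the same way, 26 and 5, and the part of a difference between the arrays in this was not tested.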

How the results depend on the processing

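No paired analysis was possible because 1 array stands on either side. The counts of microRNAs at 2-fold or more, 3 higher and 1 lower, became 6 and 3 with median scaling, 50 and 0 with spike-in scaling, 5 and 3 with cyclic loess, 26 and 18 with plain background subtraction, 10 and 9 in blocks 1 to 18, 5 and 2 in blocks 19 to 36, and 30 and 6 in the authors' processed values. The lower count alone moved to 8 with reference RNA scaling, 5 with quantile scaling over all probes, 2 with no floor, and 3 with no background correction or the median of spots. Quantile scaling over these 2 arrays and offset 10 each gave 4 higher and 3 lower. The counts with separate spots, 45 higher and 34 lower, became 125 and 0 with spike-in scaling, 79 and 89 in blocks 1 to 18 and 71 and 97 in blocks 19 to 36, where 2 spots a side separate more easily. The lower count was 74 with reference RNA scaling and 61 with quantile scaling over all probes, and the higher count was 70 with no floor. Scaling moved the median of all measured microRNAs between -0.35 (reference RNAs) and 0.51 (spike-ins), and directions of small ratios follow it. Without scaling, spike-ins had a median ratio of -0.42 and measured microRNAs -0.11. Which of them is level was not tested. Spike-in scaling set the median spike-in level of the arrays equal, which is not the same as setting the median spike-in ratio to level. It moved the ratios up by more than the -0.42 alone would. All values given with spike-in scaling are therefore higher than scaling by that ratio would give. Signals near the floor limit dim microRNAs, and 2 TAC day 20 and 4 sham rat spots were saturated.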
